A study of Mus musculus with 8 samples.

Results

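Naive CD8 T cells that carry a conditional knockout (KO) of Trappc1 were compared with wild-type (WT) naive CD8 T cells by messenger RNA sequencing. The comparison rests on the samples whose labels give the cell type CD8, which are 4 of the 8 samples of the series, with 2 KO and 2 WT libraries. All cells were sorted as naive, CD44-low cells from mLNs and spleens of mice aged 4 weeks, without any treatment named in the labels. The KO mice carried the CD4-cre transgene with the conditional Trappc1 allele. This Cre is switched on in the thymus when T cells pass through a stage that expresses CD4, so it acts in the CD8 as well as the CD4 lineage, and the other 4 samples of the series are the naive CD4 T cells of the same genotypes. The labels give no genotype for the WT mice beyond WT, do not say which part of Trappc1 is removed, and do not say whether the 2 libraries of a group came from separate mice. The p-values below therefore measure the spread between libraries, which may be technical.

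TRAPPC1 belongs to the core of the TRAPP complexes. These complexes catch transport vesicles at their target membrane and activate Rab GTPases on the path from the endoplasmic reticulum (ER) through the Golgi apparatus and in autophagy. Naive CD8 T cells recirculate between blood and lymphoid organs in a resting state and depend on signals from the T cell receptor and from interleukin-7 to stay alive. The tumour suppressor p53 is a transcription factor that is stabilised under DNA damage and other stresses and switches on genes of cell cycle arrest, repair and cell death. The series title asks after the survival of naive T cells, and the comparison here shows the transcripts that differ in the CD8 lineage.

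The libraries carried the markers of their labelled cell type. Cd8a, which encodes a chain of the CD8 coreceptor, stood at 548 and 163 TPM in WT replicates 1 and 2 and at 484 and 418 TPM in KO replicates 1 and 2, the order in which all pairs of values are given. TPM is a length-corrected share of a library's transcripts. Cd8b1, the other chain, stood at 2192 and 658 TPM in WT and 1844 and 1828 TPM in the KO. Cd3e, a signalling chain of the T cell receptor, stood at 395 and 239.6 TPM in WT and 763 and 621 TPM in the KO, and Cd4, which these cells should lack, at 5.75 and 14.5 TPM in WT and 3.65 and 0 TPM in the KO. The sequenced depth was 3.52 to 4.01 gigabases of aligned bases per CD8 library, as worked out from the deposited coverage and FPKM.

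WT replicate 2 stood apart from the other libraries. Markers of red cell precursors, of neutrophils and other myeloid cells, and of B cells together made up 15.8% of its transcripts, against 0.610% in WT replicate 1 and 0.432% and 0.548% in the KO. Against both WT libraries 0 of 17 erythroid, 0 of 28 myeloid and 1 of 19 B cell markers were higher in the KO, and against WT replicate 1 alone 1, 20 and 11 were. Erythroid markers were low but not absent in WT replicate 1, with a sum of 2595 TPM against 399.8 and 568 TPM in the KO, and Klf1, the master factor of that lineage, was listed at 0 in all 3 of these libraries. Of 35 genes of the T cell receptor complex and its signalling, 31 were lower in WT replicate 2 than in replicate 1, with a median ratio of 0.489. Most results are therefore given against both WT libraries and against WT replicate 1 alone, or with the value of each library. In bulk RNA, fewer cells of a type and less RNA per cell cannot be told apart.

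**Figure D1:**
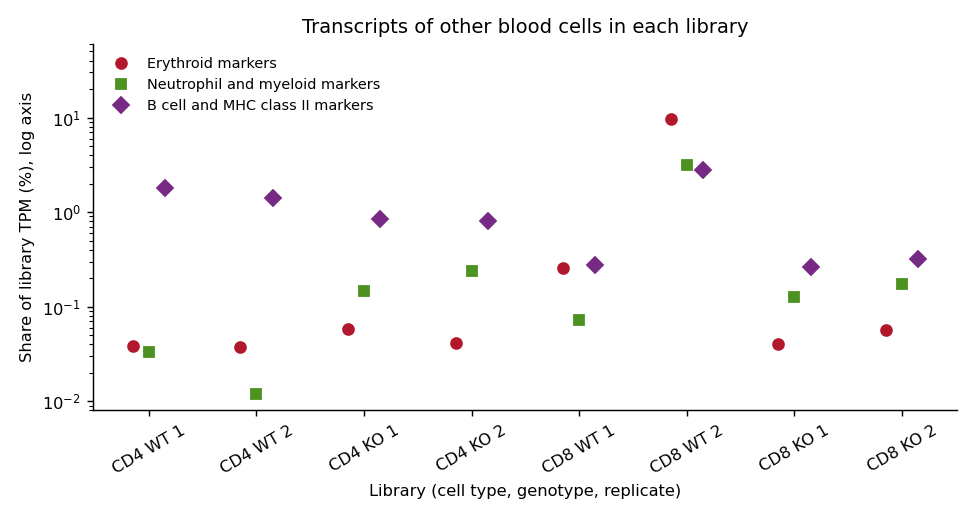
Share of each library's TPM (percent, log axis) held by 3 lists of markers of other blood cells, with 1 point for each list in each of the 8 libraries. In CD8 WT replicate 2 erythroid markers made up 9.77% and myeloid markers 3.16%, while the other 3 CD8 libraries held at most 0.260% and 0.172%.

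Trappc1 messenger RNA (chromosome 11, 69323986 to 69325793, plus strand, mm10 as in the files) did not differ detectably between the CD8 groups. It stood at 81.2 and 40.3 TPM in WT and 56.9 and 45.6 TPM in the KO. The groups overlapped, with both KO libraries between the WT libraries. The difference was -0.16 ± 0.40 (SE) on the log2(TPM + 1) scale, the scale of every difference below, and did not pass limma's test (adjusted p = 0.869). Against WT replicate 1 alone both KO libraries were lower, with a difference of -0.66 (adjusted p = 0.376). In scaled values of the median-of-ratios method the difference was -0.26. The files give 1 value per gene, so these values do not check a deleted part.

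The other subunits of the complexes showed no called change (limma), with 0 core and 2 specific subunits at an unadjusted p under 0.05. Of all 11786 genes tested 1778 had such a p-value against both WT libraries, which is the background of each such count below. Among the 8 core subunits, Trappc1 included, 6 were higher in the KO with a median of 0.41, and 5 were higher against WT replicate 1 alone with a median of 0.05. That last median was -0.05 with a trend against gene span removed. Over all 11786 genes tested those medians were 0.05 and -0.07, and removing the 3 marker lists and rescaling TPM moved the first to -0.05. Trappc6b, a core subunit that pairs with Trappc3, stood at 232 and 101 TPM in WT and 144 and 84.2 TPM in the KO, and Trappc4 stood at 184 and 89.2 TPM in WT and 229.7 and 236 TPM in the KO. Of the 6 subunits specific to the TRAPPII or TRAPPIII form, Trappc10 had the values 11.9 and 14.9 TPM in WT and 5.46 and 5.80 TPM in the KO, lower in both KO libraries (adjusted p = 0.310, and 0.407 against WT replicate 1 alone). Trappc10 was chosen after its values were seen. Of these 6 subunits 3 were higher against both WT libraries and 1 against WT replicate 1 alone, with medians of -0.04 and -0.39. With the trend against gene span removed those medians were 0.09 and -0.09.

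In total 35 genes passed the test of KO against WT at an adjusted p under 0.05 (limma, Benjamini-Hochberg). 13 rose, which is 0.110% of the genes tested, and 22 fell, which is 0.187%. The rises included targets of p53 (Ccng1, Phlda3, Gtse1, Psrc1), the kinase gene Pim2, the lipid desaturase gene Scd2, the T cell surface gene Cd7 and Polr2a, the largest subunit of RNA polymerase II. The falls included the transcriptional repressor gene Zbtb20, the ubiquitin ligase gene Rnf187, the GTPase gene Rac1, the phosphatase gene Dusp2 and the ribosomal protein gene Rps2. For all 35 genes both KO libraries lay on the same side of both WT libraries, and the smallest difference among them, in absolute size, was 2.08. The lowest adjusted p was 0.0201, shared by Scd2 and Rnf187.

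Against WT replicate 1 alone 37 genes passed, 20 higher (0.170%) and 17 lower (0.144%). Here the single WT library is assumed to vary like the other groups. The direction of the 35 genes could not turn, since both KO libraries lay on 1 side of both WT libraries. All 35 genes kept their direction, with a smallest difference of 1.81, and 15 of them passed again. The other 20 had an adjusted p between 0.0510 and 0.111. The 7 rises that passed in both comparisons were Scd2, Gtse1, Ccng1, Cd7, Polr2a, Ecm1 and Pim2, and the 8 falls were Gmds, Rnf187, Zbtb20, Efha1, Dusp2, Rac1, Rps2 and H2-Ob. A further 22 genes passed against WT replicate 1 alone, and for 21 of these WT replicate 2 differed from replicate 1 in the direction of the KO. The number of calls rested on the libraries used for the spread. Leaving out WT replicate 1 in place of replicate 2 gave 1842 calls, with all 35 among them. Leaving out CD8 KO replicate 1, CD8 KO replicate 2 or any 1 of the 4 CD4 libraries gave 0 calls by limma, with 971 to 1522 genes at an unadjusted p under 0.05, against 1778 with all libraries. The CD8 libraries fitted alone gave 0 calls, with 939 genes at an unadjusted p under 0.05.

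**Figure D2:**
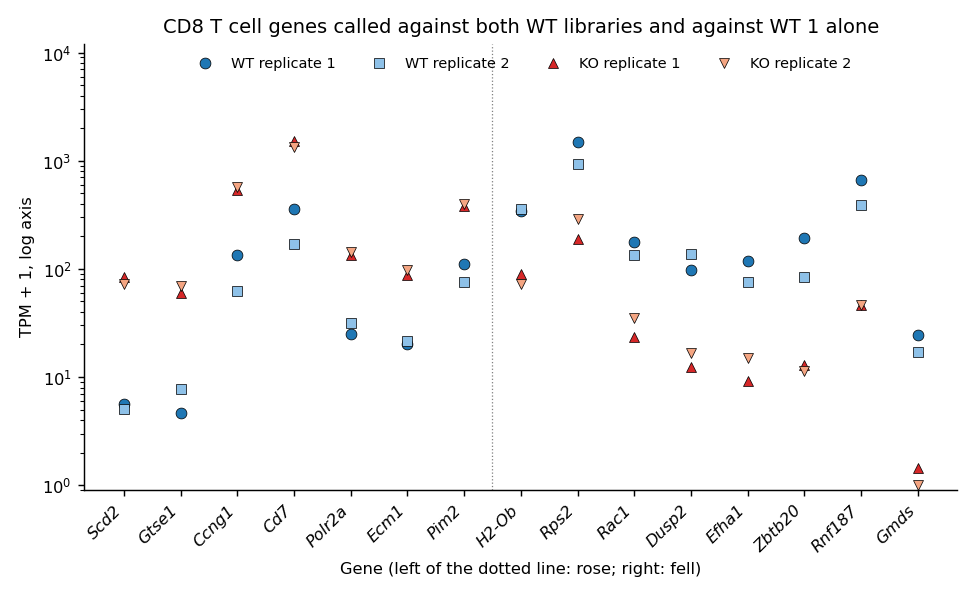
TPM + 1 (log axis) in each of the 4 CD8 libraries for the 15 genes that passed against both WT libraries and against WT replicate 1 alone. For each gene the KO libraries lie on 1 side of both WT libraries, as for Scd2 with 83.2 and 71 TPM in the KO and 4.68 and 4.03 TPM in WT.

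The listed p53 targets that rose all stand in the list of arrest, repair and feedback targets. Ccng1 encodes cyclin G1, which acts in feedback on p53, and measured 132 and 61.4 TPM in WT and 533 and 566 TPM in the KO. Both KO libraries were above both WT libraries, the difference was 2.59 ± 0.36 (adjusted p = 0.0248), and it was 2.05 against WT replicate 1 alone (adjusted p = 0.0168). Gtse1, a microtubule-binding regulator of p53, measured 3.68 and 6.81 TPM in WT and 58.7 and 68.7 TPM in the KO, with differences of 3.42 ± 0.41 (adjusted p = 0.0233) and 3.78 (adjusted p = 0.0176). Psrc1, which acts on the mitotic spindle, was nearly undetected in WT at 1.42 and 0 TPM and reached 53.5 and 43.6 TPM in the KO. Its adjusted p was 0.0233 against both WT libraries and 0.0510 against WT replicate 1 alone. Phlda3, an inhibitor of the survival kinase Akt, was listed at 0 in both WT libraries and reached 14.3 and 38.6 TPM in the KO (adjusted p = 0.0233 and 0.0521). Rps27l, a ribosomal protein homologue that responds to p53 and is not in the lists, rose from 83.9 and 47.1 TPM to 266 and 405 TPM (difference 2.36 ± 0.38, adjusted p = 0.0458), with an adjusted p of 0.0805 against WT replicate 1 alone.

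Of 25 tested targets of arrest, repair and feedback 18 were higher in the KO, and 17 against WT replicate 1 alone. The 4 that rose are those named, without Rps27l, and of these Ccng1 and Gtse1 passed again against WT replicate 1 alone. The 25 targets had a median difference of 0.54, and 0.77 against WT replicate 1 alone. Against that library alone Plk2, a kinase of the stress response, also passed, at 9.45 TPM in WT replicate 1 and 115 and 118 TPM in the KO, while WT replicate 2 stood at 362 TPM, above both KO libraries. The same order was seen for Cdkn1a, the cell cycle inhibitor p21, at 6.65 and 141 TPM in WT and 39.5 and 58.3 TPM in the KO (adjusted p = 0.822 and 0.111). Trp53inp1, a nuclear partner of p53, was higher in both KO libraries without passing, at 34 and 51.9 TPM in WT and 186 and 149 TPM in the KO (adjusted p = 0.0751 and 0.0580). Other members had lower values in the KO, such as Ercc5, a DNA repair nuclease, at 55.7 and 33.1 TPM in WT and 31.8 and 25.8 TPM in the KO. Cdkn1a, Trp53inp1 and Ercc5 were chosen after their values were seen. The lists held targets chosen with earlier results of these data known, so their direction is a description.

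The promoters of these genes were searched for the p53 response element, because several of them rose. The element is a pair of motifs of 10 bases each, searched on both strands by its palindromic consensus with a spacer of 0 or 1 bases and up to 2 mismatches, in the 250 bases before each start in a RefSeq table of GRCm38.p6, the assembly of mm10. Among 8355 tested genes with an entry, 65 held it (0.778%). It was found in 2 of 16 genes with an entry that rose in either comparison, Ccng1 and Rps27l, and in 0 of 23 that fell. In the p53 lists 4 of 28 held it, namely Ccng1, Cdkn1a, Bax and Cd80. The stretches of the genes that rose are shown with those of Cdkn1a and Bax, which did not pass, each read 5′ to 3′ on the strand of the gene with the element in capitals and 20 bases on each side.
Ccng1: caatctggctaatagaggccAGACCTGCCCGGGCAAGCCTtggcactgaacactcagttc
Rps27l: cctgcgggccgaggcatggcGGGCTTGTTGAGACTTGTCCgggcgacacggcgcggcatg
Cdkn1a: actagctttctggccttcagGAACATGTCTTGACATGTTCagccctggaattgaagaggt
Bax: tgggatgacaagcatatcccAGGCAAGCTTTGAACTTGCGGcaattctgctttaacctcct
The Ccng1 stretch lies at chr11:40755442-40755501 on the minus strand, upstream of the gene, and its element ends 176 bases before the start. The Rps27l stretch lies at chr9:66946276-66946335 on the plus strand, before an alternative start and inside the annotated gene between exons. The Cdkn1a stretch lies at chr17:29090908-29090967 on the plus strand, upstream of the gene. The Bax stretch lies at chr7:45467059-45467119 on the minus strand, upstream of Bax and inside the annotated gene Gm45808. The first 3 elements have 1 mismatch and the Bax element has 2. A match describes these letters and is no measurement of binding.

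**Figure D3:**
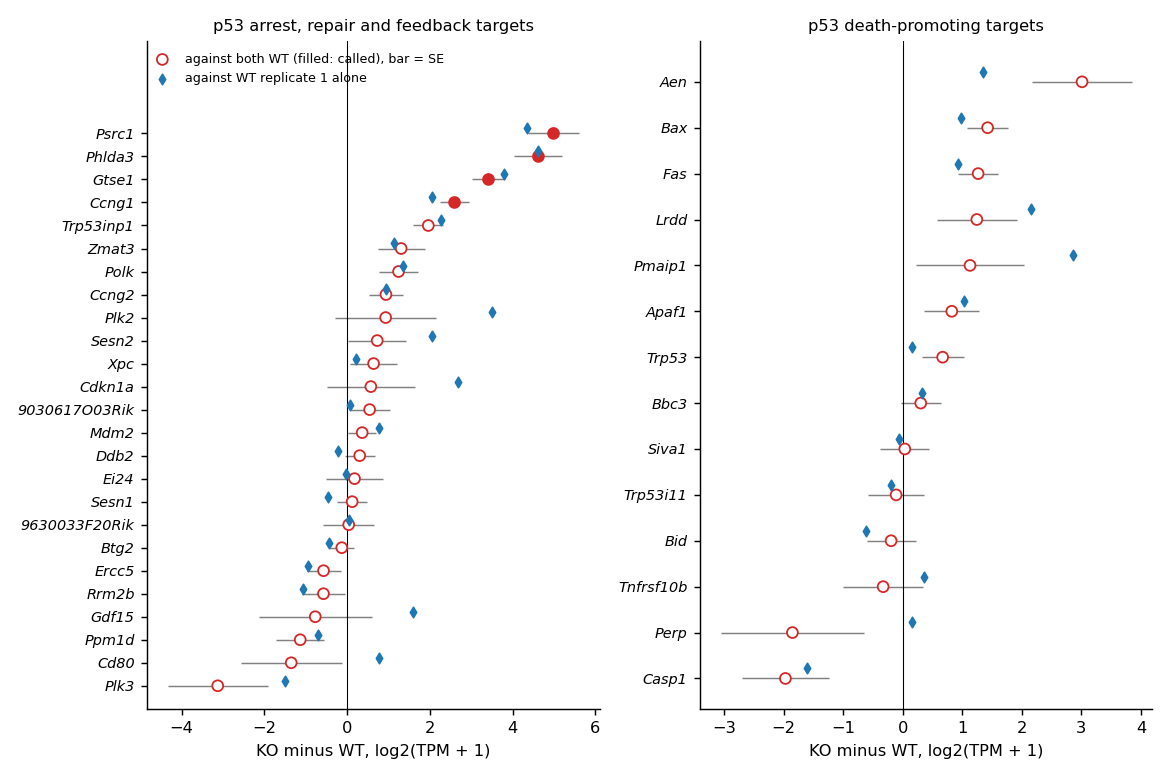
Difference between KO and WT in CD8 T cells on the log2(TPM + 1) scale for the tested p53 targets of arrest, repair and feedback (left) and of cell death (right), against both WT libraries with SE (circles, filled where called) and against WT replicate 1 alone (diamonds). Filled circles mark 4 targets on the left and 0 on the right, and the diamonds of Plk2 and Cdkn1a lie far to the right of their circles.

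Targets of p53 that promote death leaned higher, less so with the trend against gene span removed, and none passed. Of 14 members 9 were higher against both WT libraries and 10 against WT replicate 1 alone, with medians of 0.49 and 0.34. Over all genes tested 52.4% and 45.1% were higher. With the span trend removed 7 of the 14 were higher against both (median 0.20) and 10 against WT replicate 1 alone (median 0.29). With median-of-ratios scaling 8 were higher against both. An unadjusted p under 0.05 was reached by 4 (limma). In TPM as deposited the KO libraries were above both WT libraries for 7 of the 14, where 23.0% of all tested genes were. Bax, which permeabilises the outer mitochondrial membrane, stood at 512 and 278 TPM in WT and 963 and 1067 TPM in the KO (adjusted p = 0.134 and 0.120). Pmaip1, the BH3-only protein Noxa, stood at 28.9 TPM in WT replicate 1, 327 TPM in replicate 2 and 197 and 235 TPM in the KO, so both KO libraries lay between the WT libraries. Trp53, which encodes p53, had 452 and 222 TPM in WT and 458 and 555 TPM in the KO.

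Among 20 pro-survival genes Pim2, a kinase that protects T cells from death, rose from 110.2 and 75 TPM to 378 and 398 TPM. Its difference was 2.08 ± 0.29 (adjusted p = 0.0248) and 1.81 against WT replicate 1 alone (adjusted p = 0.0263). No other member passed, and 10 of the 20 were higher, 11 against WT replicate 1 alone. Birc3, an inhibitor of apoptosis of the tumour necrosis factor receptor complex, was lower in both KO libraries at 142 and 147 TPM, against 244 and 423 TPM in WT, with adjusted p = 0.188 and 0.209. Its relative Birc2 was higher at 138 and 142 TPM, against 88.7 and 78.7 TPM in WT (adjusted p = 0.30 and 0.303). Of 20 other pro-apoptotic genes 11 were higher against both WT libraries and 7 against WT replicate 1 alone, with no call and 5 at an unadjusted p under 0.05 (limma). The Gimap genes, GTPases that support lymphocyte survival, were higher for 7 of 8 members against both WT libraries and for 2 against WT replicate 1 alone. Gimap3, for example, stood at 4237 and 1456 TPM in WT and 3047 and 2474 TPM in the KO.

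Transcription factors of the naive state were mostly lower. Of 25 members 19 were lower against both WT libraries and 19 against WT replicate 1 alone, and for 13 both KO libraries were below both WT libraries, where 19.1% of all tested genes were. Zbtb20, a repressor of the BTB zinc-finger family, was the member that passed. It stood at 192 and 82.5 TPM in WT and 11.9 and 10.4 TPM in the KO, with differences of -3.39 ± 0.42 (adjusted p = 0.0233) and -3.99 (adjusted p = 0.00816). Runx1, Ikzf1, Foxp1 and Zeb1, which were chosen after their values were seen, were lower without passing. Ikzf1, the lymphoid factor Ikaros, stood at 191 and 95 TPM in WT and 35.9 and 34.9 TPM in the KO (adjusted p = 0.162 and 0.116), and Runx1 at 24.6 and 45.5 TPM in WT and 6.89 and 0.854 TPM in the KO (adjusted p = 0.111 and 0.192). Foxp1, which maintains quiescence, stood at 239 and 198 TPM in WT and 117 and 113 TPM in the KO (adjusted p = 0.193 and 0.0881). Zeb1, a zinc-finger repressor, stood at 95.2 and 77.2 TPM in WT and 40.8 and 26.8 TPM in the KO (adjusted p = 0.158 and 0.117). The median of this list was -0.17 against both WT libraries and -0.58 against WT replicate 1 alone. Once a trend with the length of genes on the genome was removed, those medians were 0.09 and 0.01. The difference of Zbtb20 was then -2.05 against both WT libraries (limma adjusted p = 0.0923) and -2.55 against WT replicate 1 alone. Tcf7, which encodes the naive and stem-like factor TCF-1, stood at 1984 and 701 TPM in WT and 2110.1 and 2049 TPM in the KO, close to WT replicate 1.

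Receptors for homing and for cytokines differed gene by gene. Itgb7, the integrin chain that pairs with alpha4 or alphaE for entry to and retention in the gut, fell against WT replicate 1 alone, from 794 TPM to 98 and 81.4 TPM. That difference was -3.14 (adjusted p = 0.00816). WT replicate 2 stood at 291 TPM, above both KO libraries, and the difference from both WT libraries was -2.42 ± 0.42 (adjusted p = 0.0626). Itgae, the alphaE partner and a gene chosen after its values were seen, was higher at 302 and 224 TPM against 124 and 42.4 TPM in WT (adjusted p = 0.180 and 0.253). Ccr7, the chemokine receptor for entry to lymph nodes, stood at 2214 and 1914 TPM in WT and 2294 and 2253 TPM in the KO, near WT replicate 1 and above replicate 2. Il7r, the interleukin-7 receptor chain, stood at 3489 and 1142 TPM in WT and 1551 and 1270.2 TPM in the KO. The KO overlapped WT through WT replicate 2, and the difference was -0.51 ± 0.46 (adjusted p = 0.614) against both WT libraries and -1.31 (adjusted p = 0.0592) against replicate 1. Il2rg, the chain shared by the interleukin-7 and interleukin-2 receptors, was higher in both KO libraries at 1813 and 1735 TPM, against 1246 and 741 TPM in WT (adjusted p = 0.288 and 0.449). Of the 33 cytokine receptor and signalling genes 20 were higher, 19 against WT replicate 1 alone. None passed, with 6 at an unadjusted p under 0.05 (limma), where 1778 of all 11786 genes tested were.

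The T cell receptor complex and its proximal signalling genes showed no call (limma), with 6 at an unadjusted p under 0.05 (1778 of all 11786 genes tested). They were higher for 20 of 35 members against both WT libraries and for 7 against WT replicate 1 alone, with medians of 0.14 and -0.37. The kinase gene Lck, for example, stood at 1679 and 592 TPM in WT and 1609.9 and 1484 TPM in the KO, and the adaptor gene Lat at 1712 and 667 TPM in WT and 1586 and 1441 TPM in the KO. WT replicate 2 was the low library for both, and the KO lay near WT replicate 1. Among 17 CD8 lineage genes Cd7, a surface glycoprotein of T and natural killer cells, rose from 354 and 171 TPM to 1521 and 1329 TPM, with differences of 2.53 ± 0.37 (adjusted p = 0.0284) and 2.0 (adjusted p = 0.0373). The others did not pass. Klrd1, the CD94 receptor chain, stood at 973 and 304 TPM in WT and 629 and 551 TPM in the KO.

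Genes of memory-like and effector T cells depended on the WT library. Of 31 members 16 were higher against both WT libraries, with a median of 0.16, and 23 against WT replicate 1 alone, with a median of 1.24. In FPKM the first median was -0.01. The list took up 882 TPM in WT replicate 1, 3926 in replicate 2 and 1405 and 1469 in the KO. Both KO libraries were above both WT libraries for 10 of the 31 members and below both for 4. Over all genes tested these shares were 23.0% and 19.1%. For 4 genes picked after their values were seen, both KO libraries were above both WT libraries. Tnfsf4, the OX40 ligand, stood at 4.14 and 4.84 TPM in WT and 40.5 and 33.2 TPM in the KO (adjusted p = 0.0648 and 0.0876), and the protease gene Gzmm at 2.76 and 3.23 TPM in WT and 18.2 and 20.4 TPM in the KO (adjusted p = 0.0914 and 0.0884). The chemokine gene Ccl5 stood at 26.9 and 87.7 TPM in WT and 245 and 279 TPM in the KO (adjusted p = 0.158 and 0.0805). The chemokine receptor gene Cxcr3 stood at 10.3 and 12.6 TPM in WT and 43.2 and 55.1 TPM in the KO (adjusted p = 0.158 and 0.152). The chemokine gene Ccl3 did not share this order, at 37.7 and 1491 TPM in WT and 5.39 and 14.7 TPM in the KO.

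Immediate early genes, which respond within minutes to receptor signals and to cell handling, changed sign with the WT library as well. They were higher for 3 of 30 members against both WT libraries and for 19 against WT replicate 1 alone. Their sum was 4693 TPM in WT replicate 1, 16582 in replicate 2 and 5466 and 5847 in the KO. Dusp2, a nuclear phosphatase that switches off MAP kinases, fell in both comparisons. It stood at 96.9 and 135 TPM in WT and 11.4 and 15.6 TPM in the KO, with differences of -3.01 ± 0.37 (adjusted p = 0.0233) and -2.77 (adjusted p = 0.0476). Ier2, an early response regulator, fell from 471 and 1177 TPM to 88.1 and 139.9 TPM (adjusted p = 0.0458) and missed against WT replicate 1 alone (adjusted p = 0.0729). Gadd45b, a stress response gene, passed against WT replicate 1 alone, at 14.8 TPM there and 78.1 and 61 TPM in the KO (difference 2.15, adjusted p = 0.0369). WT replicate 2 stood at 371 TPM, which turned the difference from both WT libraries to -0.13 (adjusted p = 0.965). Of the list's 30 members 2 thus fell against both WT libraries, Dusp2 and Ier2.

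The secretory path held few called genes. Of 23 genes of the COPI and COPII vesicle coats 18 were higher against both WT libraries and 12 against WT replicate 1 alone, with medians of 0.26 and 0.10. Of these 0 passed, with 1 at an unadjusted p under 0.05 (limma). Cope, a coat subunit, stood at 291 and 175 TPM in WT and 316 and 310.2 TPM in the KO. Of 33 Golgi tethers and SNAREs 16 were higher, 13 against WT replicate 1 alone, and 8 had an unadjusted p under 0.05 (limma). Rab1b, a GTPase that TRAPP activates, stood at 609 and 329 TPM in WT and 527 and 528 TPM in the KO, and Stx5a, the Golgi syntaxin, at 464 and 342 TPM in WT and 501 and 498 TPM in the KO. Vapa, an ER membrane protein of contact sites with the Golgi, fell from 304 and 277 TPM to 70.2 and 61.1 TPM (difference -2.13 ± 0.33, adjusted p = 0.0393), and its adjusted p was 0.0595 against WT replicate 1 alone. Vapa stands in none of these lists and was named because the calls were few.

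ER chaperones and genes of the unfolded protein response were higher for 21 of 29 members in both comparisons, with medians of 0.24 and 0.30 and no call (5 at an unadjusted p under 0.05 by limma). With the trend against gene span removed 17 were higher against both WT libraries (median 0.07) and 22 against WT replicate 1 alone (median 0.20). Hspa5, the main ER chaperone BiP, stood at 256 TPM in WT replicate 1, 1421 TPM in replicate 2 and 633 and 691 TPM in the KO. Pdia3, a disulphide isomerase that also helps to load peptides on MHC class I, stood at 1088 and 675 TPM in WT and 1437 and 1375 TPM in the KO. The lectin chaperones Calr and Canx, chosen after their values were seen, were above both WT libraries without passing. Calr stood at 161 and 276 TPM in WT and 398 and 462 TPM in the KO (adjusted p = 0.221 and 0.0700), and Canx at 114 and 253 TPM in WT and 471 and 483 TPM in the KO (adjusted p = 0.222 and 0.120).

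In lipid synthesis Scd2, a desaturase of fatty acids, rose. It stood at 4.68 and 4.03 TPM in WT and 83.2 and 71 TPM in the KO, a KO to WT ratio of the means of 17.7. Its differences were 3.86 ± 0.39 (adjusted p = 0.0201) and 3.78 against WT replicate 1 alone (adjusted p = 0.0178). It was the single call among 26 genes of fatty acid and phospholipid synthesis, whose median was -0.05 against both WT libraries and -0.002 against WT replicate 1 alone. Fasn, fatty acid synthase, was chosen after its values were seen, at 9.15 and 6.88 TPM in WT and 33.6 and 33.3 TPM in the KO (adjusted p = 0.130 and 0.161). Cholesterol genes were higher for 16 of 30 members in both comparisons, again with no call (5 at an unadjusted p under 0.05 by limma).

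In autophagy Uvrag, a subunit of the lipid kinase complex that acts in autophagy and endosome traffic, fell. It stood at 31.9 and 47.8 TPM in WT and 2.79 and 0.452 TPM in the KO, a difference of -4.09 ± 0.67 (adjusted p = 0.0458), and its adjusted p was 0.111 against WT replicate 1 alone. With median-of-ratios scaling it was 0.0516 (limma). Atg3, an enzyme of LC3 lipidation chosen after its values were seen, was lower at 22.6 and 32 TPM, against 95.1 and 84.8 TPM in WT (adjusted p = 0.101 and 0.0884). Map1lc3b, which encodes LC3B, was higher at 1762 and 1971 TPM, against 1036 and 755 TPM in WT (adjusted p = 0.183 and 0.168). The 34 autophagy genes were split, with 17 higher and 17 lower in both comparisons.

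Genes of several large housekeeping complexes were mostly higher in the KO, with few calls. In the respiratory chain 67 of 71 nuclear genes were higher (median 0.54), and 53 against WT replicate 1 alone (median 0.35). Their sum was 9905 TPM in WT replicate 1, 6284 in replicate 2, and 10339 and 11582 in the KO, so most of the gap to WT lay in replicate 2. With the marker lists of other cells removed and TPM rescaled the median was 0.42. With the trend against gene span removed 56 were higher against both WT libraries, with a median of 0.31. Atp5b, the catalytic subunit of ATP synthase, stood at 1336 and 1074 TPM in WT and 1646 and 1795 TPM in the KO (adjusted p = 0.443). No member passed, with 12 of the 71 at an unadjusted p under 0.05 (limma), where 1778 of all 11786 genes tested were.

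Proteasome subunits were higher for 32 of 36 members against both WT libraries and for 30 against WT replicate 1 alone, with medians of 0.40 and 0.24. No member passed (11 at an unadjusted p under 0.05 by limma). Psma7, a subunit of the core particle, stood at 365 and 212 TPM in WT and 513 and 497 TPM in the KO. MHC class I genes and those that load its peptides were higher for 15 of 17 members, and both KO libraries were above both WT libraries for 11 of them, where 23.0% of all tested genes were. Against WT replicate 1 alone 11 were higher and the median went from 0.66 to 0.20. With the trend against gene span removed the first median was 0.32. B2m, the light chain of MHC class I, stood at 5221 and 3907 TPM in WT and 6608 and 7872 TPM in the KO, with adjusted p = 0.358 and 0.393. Tapbp, the loading factor tapasin, stood at 1040.2 and 699 TPM in WT and 1663 and 1683 TPM in the KO (adjusted p = 0.211 and 0.201). None of the members passed (4 at an unadjusted p under 0.05 by limma). MHC class I genes are close copies of each other, so the division of reads among them is uncertain.

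Of 75 genes for ribosomal proteins 72 were higher, and 53 against WT replicate 1 alone, with medians of 0.50 and 0.25. The list summed to 38844 TPM in WT replicate 1, 22512 in replicate 2, and 31561 and 39748 in the KO, so KO replicate 1 lay between the WT libraries. With the trend against span removed 49 were higher against both WT libraries (median 0.12) and 42 against WT replicate 1 alone (median 0.06). Rps2, a protein of the small subunit, was the exception that passed. It fell from 1478 and 933 TPM to 189 and 291 TPM, with differences of -2.32 ± 0.35 (adjusted p = 0.0335) and -2.65 (adjusted p = 0.0373). Rps2 has many processed copies, so its reads are uncertain. Of 37 genes of RNA polymerase II and elongation 27 were higher, and 28 against WT replicate 1 alone. Polr2a, the catalytic subunit, rose from 24.1 and 30.9 TPM to 133 and 142 TPM, with differences of 2.29 ± 0.31 (adjusted p = 0.0248) and 2.46 (adjusted p = 0.0263). Its partner Polr2e stood at 341 and 177 TPM in WT and 388 and 414 TPM in the KO and did not pass.

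Of 35 actin cytoskeleton genes 26 were higher against both WT libraries and 19 against WT replicate 1 alone. Among them Rac1, a GTPase that drives lamellipodia, fell. It stood at 177 and 132 TPM in WT and 22.6 and 34.2 TPM in the KO, with differences of -2.42 ± 0.35 (adjusted p = 0.0284) and -2.63 (adjusted p = 0.0430). Rac2, the related form of blood cells and chosen after its values were seen, stood at 783 and 424 TPM in WT and 691 and 690.2 TPM in the KO. Lcp1, the actin-bundling protein L-plastin, was above both WT libraries at 1107 and 1064 TPM, against 516 and 427 TPM in WT (adjusted p = 0.127 and 0.0979). Of 38 cell cycle genes 21 were higher against both WT libraries and 32 against WT replicate 1 alone, with medians of 0.15 and 0.76. With a trend on gene span, described further on, removed, 12 were higher against both and 31 against WT replicate 1 alone. Gtse1 and Psrc1 passed against both WT libraries, and Gtse1 again against WT replicate 1 alone. Stmn1, a tubulin-binding protein, stood at 79.1 and 91.1 TPM in WT and 246 and 248 TPM in the KO. It passed against WT replicate 1 alone, with a difference of 1.63, and not against both (limma adjusted p = 0.0673). Mki67, a marker of cycling cells chosen after its values were seen, stood at 1.24 and 67.3 TPM in WT and 7.70 and 10 TPM in the KO. DNA damage sensing and repair genes were lower for 22 of 36 members, and for 24 against WT replicate 1 alone, without a call (6 at an unadjusted p under 0.05 by limma).

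**Figure D4:**
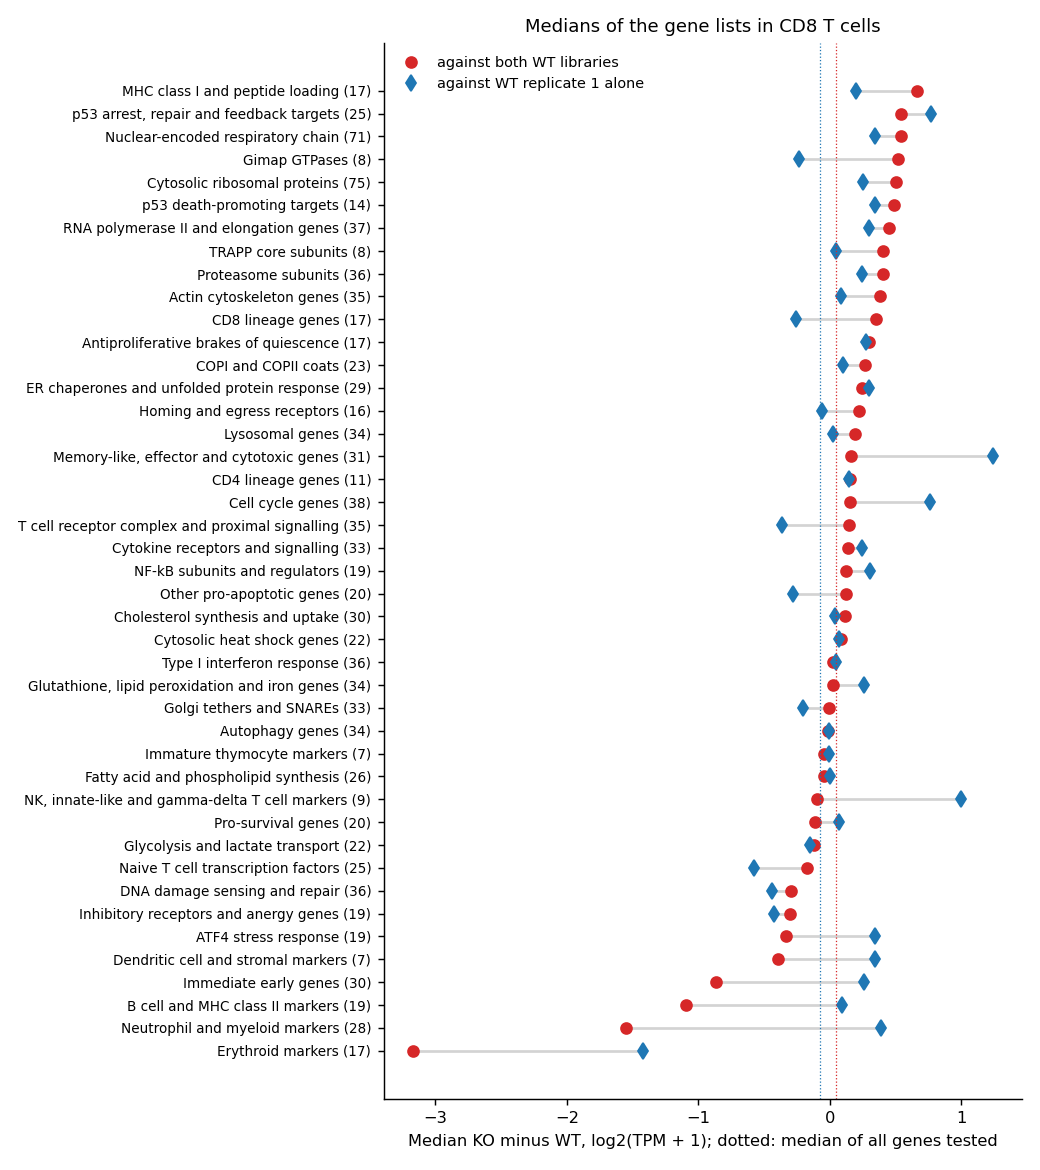
Median difference between KO and WT on the log2(TPM + 1) scale for each gene list with at least 7 tested members (number in brackets), against both WT libraries (circles) and against WT replicate 1 alone (diamonds), with the medians of all genes tested as dotted lines. The p53 lists, the respiratory chain, the proteasome and RNA polymerase II lie to the right with both, while immediate early genes and the myeloid markers change side.

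Some of the largest changes were in genes outside these groups. Cd163l1 and 5830411N06Rik encode the scavenger receptors SCART1 and SCART2, which are known from gamma-delta T cells, and neighbour each other on the plus strand of chromosome 7 (140218267 to 140231145 and 140247301 to 140299791, mm10). Cd163l1 was listed at 0 in both WT libraries and reached 48.7 and 35.4 TPM in the KO (adjusted p = 0.0266 and 0.0701). 5830411N06Rik stood at 0.264 and 0 TPM in WT and 54.8 and 25.7 TPM in the KO (adjusted p = 0.0248 and 0.0574). In the CD4 libraries Cd163l1 ranged from 0.122 to 6.17 TPM. Cd163l1 was the single call among 9 tested markers of natural killer and innate-like T cells, and the innate factor genes Sox13 and Zbtb16 were at most 1.03 TPM in the KO. The sum of that list was 11.3 and 124 TPM in WT and 91 and 81.5 TPM in the KO, with Gzma and Blk the largest besides Cd163l1. The part of other cells in the rises of Cd163l1 and 5830411N06Rik was not tested.

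Rnf187, an ubiquitin ligase that acts with the transcription factor AP-1, fell from 669 and 390.2 TPM to 45 and 45.3 TPM, with differences of -3.47 ± 0.37 (adjusted p = 0.0201) and -3.86 (adjusted p = 0.0138). Efha1, now named Micu2, gates calcium uptake into mitochondria and fell from 116 and 75.2 TPM to 8.11 and 14.1 TPM (adjusted p = 0.0241 and 0.0323). Gmds, the first enzyme of GDP-fucose synthesis, fell from 23.6 and 15.9 TPM to 0.440 and 0 TPM (adjusted p = 0.0248 and 0.0477). Both raftlin genes fell, which encode proteins of lipid rafts. Rftn1 stood at 66.4 and 80.8 TPM in WT and 10.7 and 9.76 TPM in the KO (adjusted p = 0.0335 and 0.0805), and Rftn2 at 16.7 and 9.76 TPM in WT and 0.248 and 0.118 TPM in the KO (adjusted p = 0.0335 and 0.0520). Lsm4, a subunit of the ring that binds U6 spliceosomal RNA, fell from 145 and 124 to 9.65 and 15.6 TPM (adjusted p = 0.0233 and 0.0521). Ecm1, a secreted glycoprotein, rose from 19.1 and 20.6 TPM to 86.5 and 96.6 TPM, with differences of 2.15 ± 0.30 (adjusted p = 0.0248) and 2.20 (adjusted p = 0.0323). Kap, a gene of androgen-regulated kidney protein, stood at 1.13 and 0 TPM in WT and 25.7 and 30 TPM in the KO (adjusted p = 0.0248 and 0.0554).

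Other falls ranged in difference from -3.82 for Slc39a11, a zinc transporter, to -2.29 for Foxn3, a forkhead repressor. Slc39a11 stood at 29.6 and 19.4 TPM in WT and 0.241 and 1.51 TPM in the KO, and Foxn3 at 69 and 105 TPM in WT and 16.4 and 16.7 TPM in the KO. Between them lay Cdkal1, a transfer RNA modifying enzyme, at -3.42, Scand1 at -3.29, the calcium/calmodulin kinase gene Camk2d at -3.22, Gm15708 at -2.82, the lysine methyltransferase gene Smyd3 at -2.77 and the histone-binding Anp32b at -2.32. These 8 genes did not pass against WT replicate 1 alone, where their differences ran from -4.11 for Slc39a11 to -1.93 for Anp32b. H2-Ob, a chain of the MHC class II peptide editor, fell from 339 and 358 TPM to 89.3 and 71.3 TPM (adjusted p = 0.0233 and 0.0263) and was named because the calls were few. It is a gene that B cells express, and the summed B cell and MHC class II markers were 2769.8 and 28218 TPM in WT and 2648 and 3189 TPM in the KO. The part of B cells in this fall was not tested.

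Calls that rest on WT replicate 1 alone include Chmp7, a membrane remodelling protein of the ESCRT-III complex, at 93.3 TPM there, 45.2 TPM in replicate 2 and 13.8 and 11.4 TPM in the KO (adjusted p = 0.0400, and 0.0751 against both). The uncharacterised 1110034G24Rik stood at 101 and 32.8 TPM in WT and 15.1 and 16.1 TPM in the KO (adjusted p = 0.0400, and 0.173 against both). For Cdv3, Txnl4a, Gstp2, Klf10, Gm129 and 1700001P01Rik the value in WT replicate 1 was the lowest of the 4 libraries and WT replicate 2 was much nearer the KO or above it. Cdv3 stood at 0.161 TPM there, 73.9 TPM in replicate 2 and 87.9 and 90.4 TPM in the KO, and Txnl4a, a spliceosome component, at 36.5 and 187 TPM in WT and 264 and 273 TPM in the KO. Klf10, a TGF-beta induced factor, stood at 20.7 and 246 TPM in WT and 123 and 152 TPM in the KO, and Gm129, now named Ciart, a repressor of the circadian clock, at 9.52 and 134 TPM in WT and 84.1 and 62 TPM in the KO. Their adjusted p against both WT libraries ran from 0.247 for Txnl4a to 0.630 for Gm129 among these 4 genes. Snord57, a small nucleolar RNA gene inside a longer host gene, stood at 9.17 and 43.1 TPM in WT and 60.5 and 50.1 TPM in the KO, and reads from the host gene cannot be told apart from its own.

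Differences followed the span of genes, the distance from start to end on the genome. The median difference was 0.30 for 1910 genes under 5 kb and -1.29 for 308 genes of at least 200 kb, of which 93.5% were lower in the KO. Against WT replicate 1 alone those medians were 0.13 and -1.38. Of the 22 genes that fell, 9 span at least 100 kb, among them Gmds, Cdkal1, Smyd3, Zbtb20, Slc39a11 and Uvrag, where 8.86% of the genes with a known span do. Another 8 falls span under 10 kb, such as Dusp2, Ier2, Rps2 and Rnf187. Of the 13 genes that rose the longest spans 52.5 kb. With the trend removed 30 genes passed in place of 35, 13 higher and 17 lower, and 22 of them were among the 35. Zbtb20 no longer passed, at a difference of -2.05 (limma adjusted p = 0.0923), but did pass against WT replicate 1 alone, at -2.55 (limma adjusted p = 0.0261). Gmds passed in neither comparison, with differences of -2.53 and -2.69 (limma adjusted p = 0.118 and 0.112), and neither did Uvrag, with -2.99 and -2.61 (limma adjusted p = 0.152 and 0.196).

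**Figure D5:**
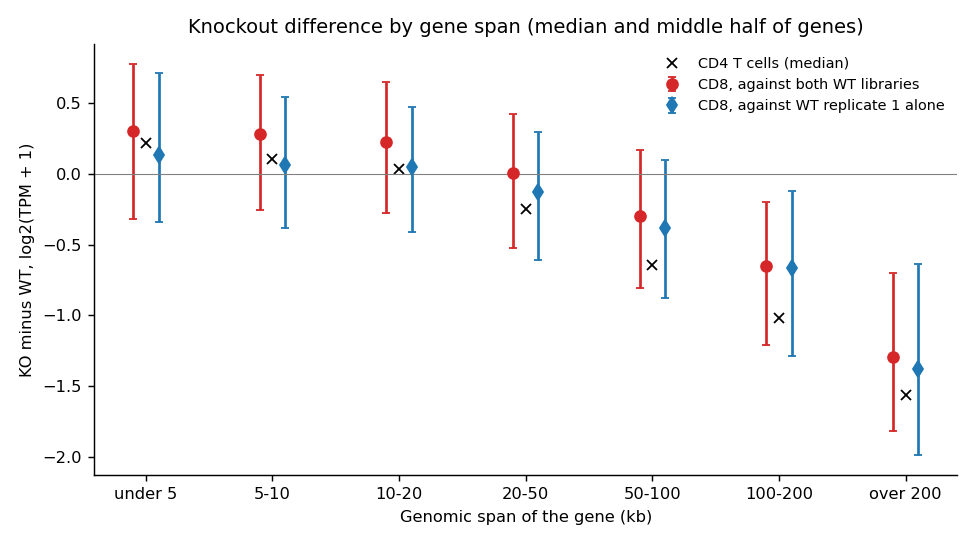
Difference between KO and WT on the log2(TPM + 1) scale by genomic span of the gene in kb. Points are medians and bars the interquartile range, for CD8 T cells against both WT libraries and against WT replicate 1 alone, with medians of the CD4 comparison as crosses. All 3 series go down with span, to -1.29, -1.38 and -1.56 in the longest genes.

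The effect of the knockout in CD8 cells was set against that in the naive CD4 T cells, which share no library with it. The difference between the effects passed for 0 of 11786 genes (0%), with a lowest adjusted p of 0.367 and 819 genes at an unadjusted p under 0.05 (limma). Without WT replicate 2 it was also 0, with a lowest adjusted p of 0.0667. Across genes the 2 effects correlated with Pearson's r of 0.285, and 0.479 with WT replicate 1 alone, over 11786 genes that share the libraries and are not independent. Among genes called higher in the CD8 lineage 12 of 13 were also higher in the CD4 KO, and of those that fell 15 of 22 were also lower. The median CD4 difference was -0.16 over all genes tested and -1.56 for genes of at least 200 kb, which include 8 of the falls. The shares of all genes higher and lower in the CD4 KO were not counted, so neither 12 of 13 nor 15 of 22 has a background. The genes that rose had a median difference of 3.42 in CD8 cells and 2.53 in CD4 cells, and those that fell had -3.01 and -1.32. Scd2 (3.86 in CD8 and 3.72 in CD4 cells), Kap (4.30 and 4.40), Ccng1 (2.59 and 2.58), Pim2 (2.08 and 2.16), Polr2a (2.29 and 2.53) and Zbtb20 (-3.39 and -3.94) had values of like size in both.

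The difference of effects had its lowest p-values for Dusp2, Lcp1, Tgfbr2, Scand1 and Ier2, each with an adjusted p of 0.367. Tgfbr2, the ligand-binding receptor for TGF-beta that keeps naive T cells quiet, measured 43.4 and 42.4 TPM in WT and 98.6 and 114 TPM in KO CD8 cells, and 272 and 308 TPM in WT and 122 and 148 TPM in KO CD4 cells. The difference of its effects was 2.39 ± 0.40 (unadjusted p = 0.000157), and the CD8 effect did not pass against both WT libraries or replicate 1 alone (adjusted p = 0.119 and 0.0838). Lcp1 measured 684 and 678 TPM in WT and 302 and 221 TPM in KO CD4 cells, where its effect was -1.39, against 1.21 in CD8 cells. Cd7, with 2.53 in CD8 and 0.32 in CD4 cells, and Ecm1, with 2.15 and -0.14, had adjusted p = 0.587 and 0.431 for the difference (limma). None of these differences passed, so an effect particular to CD8 cells was not shown for any gene.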

How the data were processed

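Messenger RNA libraries of naive CD8 and CD4 T cells were made from TRIzol-extracted RNA with a SMARTER kit, per the labels' protocols, and aligned with HISAT to mm10, per the submitters' processing notes. No version of these, and no program for the expression values, is named in the sources at hand. Every deposited file lists, per gene, coverage, FPKM and TPM. The TPM values, in which each library sums to the same total, were computed by the authors and deposited in that form. They keep no depth, so no counting error could be given. FPKM and coverage, also deposited by the authors, served for a check of the TPM results and for the aligned bases per library.

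TPM was summed per gene symbol, and a gene was tested if its mean over the 8 libraries reached 1 TPM (11786 of 23337 genes). limma 3.58.1 in R 4.3.3 was fitted with an intensity trend to log2(TPM + 1), with 1 mean for each of the 4 groups, since all groups then share the estimate of spread (4 residual degrees of freedom). The fitted log2 differences lie on this scale, which understates the change of low genes, and p-values are two-sided and Benjamini-Hochberg adjusted over all genes tested. Comparisons against WT replicate 1 alone come from the same model without WT replicate 2. Where 2 adjusted p-values follow a gene, the first is against both WT libraries and the second against WT replicate 1 alone.

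The members and the 45 gene lists, with 1155 genes, were chosen with earlier results of these data known. Genes were named by rule: called genes with non-overlapping CD8 groups and a higher group mean of at least 5 TPM (up to 15 rises and 20 falls), up to 10 each way against WT replicate 1 alone, up to 4 members of each list by call or level, the markers, and 5 genes with the lowest p for the CD8 effect minus the CD4 effect. Alternatives changed the pseudocount, filter, scaling, unit, model and libraries. A count test was not used, since the files hold no counts.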

Additional observations from a re-analysis of the deposited data

Results flagged for a closer look

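Among the genes that passed against both WT libraries or against WT replicate 1 alone, there were 5 for which both CD8 KO libraries lay below both CD8 WT libraries while both CD4 KO libraries lay above both CD4 WT libraries. Over all genes tested both CD8 KO libraries lay below both CD8 WT libraries for 19.1%. The share of all genes with this order and the opposite order in CD4 cells was not counted. The difference between the CD8 and CD4 effects was -3.71 on the log2(TPM + 1) scale for Ier2, -3.48 for Dusp2, -2.93 for Rps2, -2.84 for Chmp7 and -2.76 for Anp32b. limma's test of the difference did not pass for any of them, with adjusted p = 0.367 for Ier2, Dusp2 and Rps2 and 0.447 for Chmp7 and Anp32b. Dusp2 measured 44 and 37 TPM in WT and 68.2 and 46.9 TPM in KO CD4 cells, and Ier2 328 and 202 TPM in WT and 488 and 525 TPM in KO CD4 cells. Rps2 measured 593 and 845 TPM in WT and 1233 and 947 TPM in KO CD4 cells.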

How the results depend on the processing

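All 35 called genes kept their direction in every alternative run. Their KO and WT libraries did not overlap, so only runs that changed the scaling or unit or removed the span trend could have turned it. The number called did not hold. It was 0 without the filter on low values (2047 genes at an unadjusted p under 0.05, limma), 0 with the CD8 groups fitted alone (939), 0 with library weights (991) and 15 without an intensity trend. Leaving out 1 library gave from 0 to 1842 calls. Pseudocounts of 0.1 and 5 gave 31 and 27, a filter of 5 TPM 41, median-of-ratios scaling 45, FPKM 35, and TPM rescaled without the marker lists 49. The difference between CD8 and CD4 effects gave 1148 calls without CD8 WT replicate 1, so leaving out 1 library spanned 0 to 1148. An alternative chosen after seeing the data, which removed the span trend and CD8 WT replicate 2 together, gave 2 such calls, and all the remaining alternatives gave 0. Of the genes named, 2 changed sign with a pass on either side: Gadd45b was 2.15 without CD8 WT replicate 2 and -2.41 without replicate 1. Without replicate 2 it was 1.96 with the span trend also removed and 2.15 with the marker lists also removed. Plk2 was -1.63 without CD8 WT replicate 1 and 3.49 without replicate 2. Values that passed in neither setting also changed sign, such as Trappc1, at 0.33 without CD8 WT replicate 1 and -0.66 without replicate 2. The cause was not tested.

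The deviations of same-numbered libraries correlated by -0.0359 to 0.0942 over the pairs of groups. Each deviation rests on 2 libraries, and CD8 WT replicate 2 held markers of other cells, so pairing by replicate number could not be judged. With the replicate number as a block 26 genes were called, all among the 35. With 2 libraries a group, low genes and single calls near the threshold are the least certain, and TPM gives no counting error.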

Other observations

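Gene groups that belong to no result above gave no call. Against both WT libraries 1778 of all 11786 genes had an unadjusted p under 0.05 (limma). So did 10 of 34 glutathione, lipid peroxidation and iron genes, 8 of 34 lysosomal genes and 7 of 19 inhibitory and anergy genes. The others were 6 of 17 genes that hold T cells out of the cycle, 5 of 36 interferon, 4 of 22 glycolysis, 3 of 19 NF-kB, 2 of 19 ATF4 and 2 of 22 heat shock genes. Ftl1, the light chain of ferritin, which stores iron, was above both WT libraries at 21703 and 25243 TPM, against 8315 and 16584 TPM in WT (limma adjusted p = 0.319, and 0.106 against WT replicate 1 alone). Fth1, the heavy chain, stood at 5335 and 31773 TPM in WT and 6457 and 8561 TPM in the KO. Of the 34 genes of glutathione, lipid peroxidation and iron 17 were higher, and 24 against WT replicate 1 alone. Prdx1, a peroxiredoxin, stood at 528 and 348 TPM in WT and 816 and 938 TPM in the KO (limma adjusted p = 0.186 and 0.156). Genes of the ATF4 stress response were higher for 5 of 19 members against both WT libraries and for 15 against WT replicate 1 alone. Atf4 stood at 185 and 657 TPM in WT and 325 and 347 TPM in the KO, between the WT libraries.

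Tubb5, a tubulin chain, was above both WT libraries at 3883 and 4213 TPM, against 1997 and 1189 TPM in WT (limma adjusted p = 0.177 and 0.233). Tox, a factor of thymic CD4 lineage choice, was lower at 43.7 and 13.6 TPM, against 139 and 69 TPM in WT (limma adjusted p = 0.173 and 0.126). Interferon response genes were split, with 19 of 36 higher against both WT libraries and 20 against WT replicate 1 alone, with medians of 0.02 and 0.05. In the same order, medians were -0.12 and -0.15 for 22 glycolysis genes, 0.19 and 0.03 for 34 lysosomal genes, 0.08 and 0.07 for 22 heat shock genes, and 0.12 and 0.30 for 19 NF-kB genes, with 0.05 and -0.07 over all genes tested. Genes that hold T cells out of the cycle were higher for 10 of 17 in both comparisons, with medians of 0.30 and 0.27. Inhibitory receptors and anergy genes were higher for 6 of 19 and, against WT replicate 1 alone, for 9, with medians of -0.31 and -0.43.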
